A study of Rattus norvegicus with 21 samples.

Results

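The inflammatory mediators described here are 6 genes followed in rat bladder after spinal cord injury (SCI), the cytokines Il6 and Il1b, the cyclooxygenases Ptgs1 and Ptgs2, and the adhesion molecules Icam1 and Vcam1. They were chosen by their Ensembl identifiers, fixed as a list and not by a rule on their values, though with earlier results of these data known. All 6 were found among the 32754 genes of the count table. A filter on low counts left 15225 genes for testing, 5 of the 6 among them, and removed Il6. The symbols come with the list of identifiers, since none of the 32754 identifiers matched an entry of the RefSeq gene table used here, so the pairing of symbol and identifier was not checked. The members are ENSRNOG00000010278 (Il6), ENSRNOG00000004649 (Il1b), ENSRNOG00000007415 (Ptgs1), ENSRNOG00000002525 (Ptgs2), ENSRNOG00000020679 (Icam1) and ENSRNOG00000014333 (Vcam1).

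All rats were males of the outbred Sprague Dawley stock, and the injury was a complete transection of the cord at T8, made at 6 to 7 weeks of age. Full-thickness bladders were taken 2, 8 and 16 weeks after SCI and from noninjured controls at 0, 2, 8 and 16 weeks, with 3 animals in each of 7 groups, which gave 21 libraries. The smallest library held 8087726 counts, the middle one 9584812 and the largest 15472537, so that 1 CPM (counts scaled to a common library total) rested on 8.46 to 15.1 counts after scaling. The whole wall was sequenced, and urothelium, detrusor muscle, vessels and leukocytes all add to each value, so that fewer cells of a type and less RNA per cell cannot be told apart. The cell-type makeup was not checked against marker genes, because identifiers could not be paired with symbols.

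Inflammation in a tissue is run by signals that cells release and by surface proteins that let leukocytes in. Interleukin-1β and interleukin-6 are secreted cytokines made mainly by activated macrophages, stromal cells and epithelium, and both can induce further inflammatory genes. Cyclooxygenases turn arachidonic acid into prostaglandin H2, the precursor of prostaglandins and thromboxane. Ptgs1 encodes the form that most tissues make all the time, and Ptgs2 the form induced by cytokines and, in bladder, by stretch. ICAM-1 and VCAM-1 stand on endothelium and other cells, where they bind the integrins of passing leukocytes. The transcription factor NF-κB drives many of these genes. The question here was how the 6 genes stood in injured bladders against controls of the same week and how they changed over time.

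After SCI, Vcam1 was the member with the clearest difference. Its RNA was at 0.470 times the control level at 8 weeks and at 0.369 times at 16 weeks. Every SCI library was below every control library of its week at 2, 8 and 16 weeks, as held at all 3 weeks for 2.08% of the genes tested. Ptgs2 was lower at 8 weeks as well, a call that rested on a control library with a high value. Icam1, Ptgs1 and Il1b passed the threshold at no week, and Il6 was at or near 0 counts throughout. The threshold was a Benjamini-Hochberg adjusted p of 0.05 in edgeR's quasi-likelihood test, adjusted over all 15225 genes. At 2 weeks 0 of 5 members were called, where 0% of all genes were called, and 1 member, Vcam1, had an unadjusted p under 0.05, as 6.67% of all genes did. DESeq2 called 0 members at 2 weeks too, where it called 0.42% of all genes. At 8 weeks 2 of 5 were called, both lower (8.41% of all genes were called and 5.14% were lower). At 16 weeks 1 of 5 was called, again lower (5.62% of all genes were called and 3.24% were lower). For the mean of the 3 within-week differences, with 9 SCI and 9 control libraries, 1 of 5 was called, Vcam1, against 22.7% of all genes (12.3% were lower). The median log2 fold change of the 5 members was 0.07 at 2 weeks, -0.24 at 8 weeks and -0.33 at 16 weeks, while the median over all tested genes was 0.0017, 0.0032 and -0.017. Each member median is the value of a single gene that was not called, Il1b at 2 and 16 weeks and Icam1 at 8 weeks. These values moved when 1 library was left out, as given below.

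**Figure D1:**
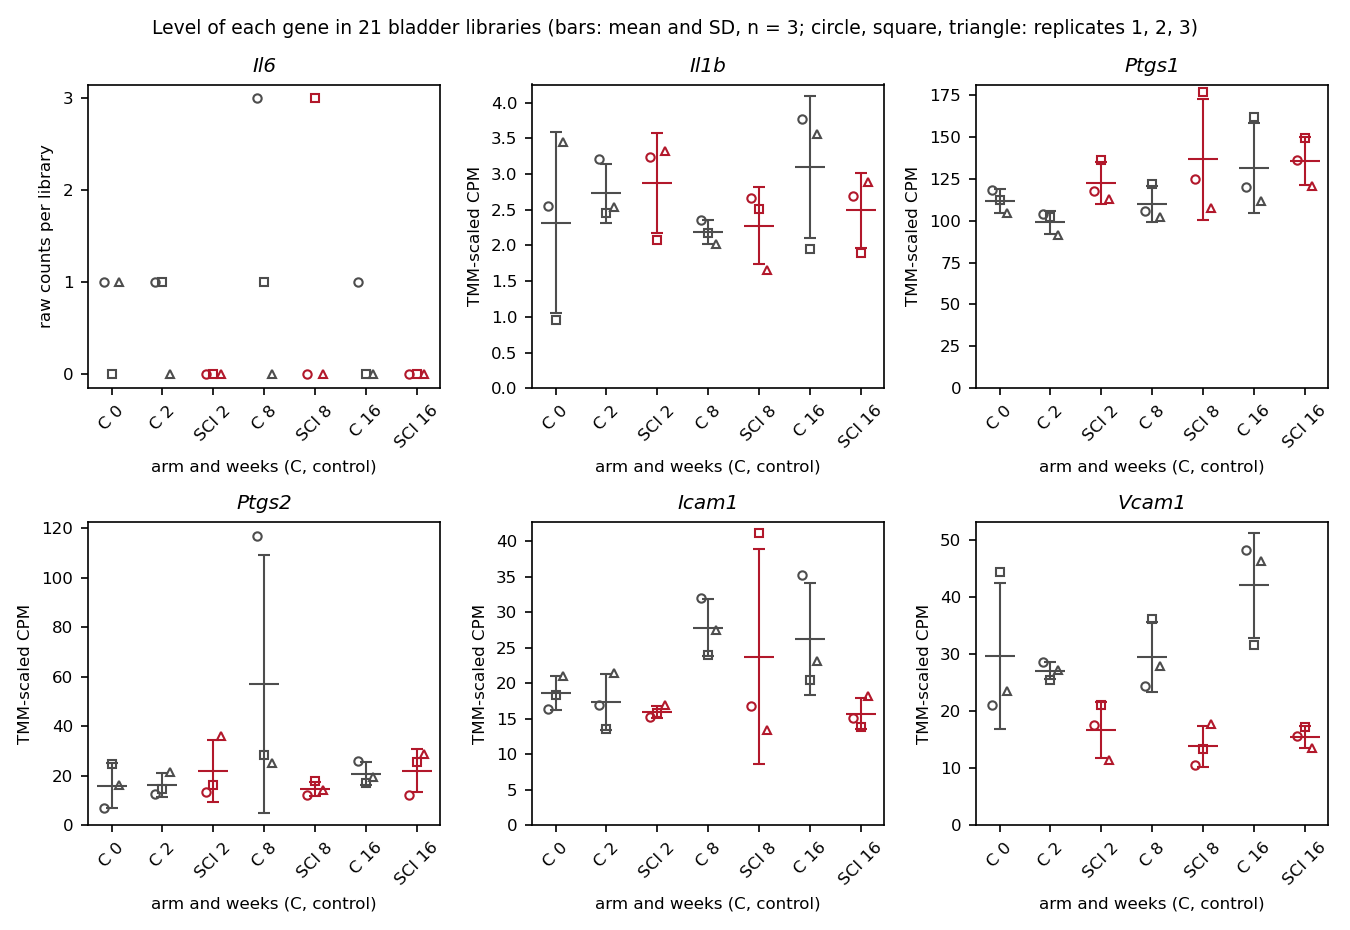
Level of the 6 genes in each of the 21 libraries by arm and week (C, control; grey, control; red, SCI), as raw counts for Il6 and as TMM-scaled CPM for the others, with mean and SD of 3 animals. For Vcam1 the 9 SCI libraries lie between 10.6 and 21.0 CPM and the 9 controls of 2, 8 and 16 weeks between 24.3 and 48.2 CPM, while for Ptgs2 1 control at 8 weeks stands at 117.0 CPM.

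Il6 was barely detected. Over the 21 libraries it had 12 counts in all, and 13 libraries had 0 counts. The controls had 1, 0 and 1 counts at 0 weeks, 1, 1 and 0 at 2 weeks, 3, 1 and 0 at 8 weeks, and 1, 0 and 0 at 16 weeks, each in order of replicate. Among SCI libraries only replicate 2 at 8 weeks had any, with 3 counts. Pooled over libraries, this came to 9 counts in 12 controls, or 0.0696 CPM (95% exact Poisson interval 0.0318 to 0.132), and 3 counts in 9 SCI libraries, or 0.0360 CPM (0.00743 to 0.105). The intervals cover counting error only and they overlap. A floor of 3 counts, used here as the limit for a count of 0, was 0.257 to 0.351 CPM across the libraries with 0 counts. The upper end of the 95% exact Poisson interval for 0 counts is a little higher, at 3.69 counts. No difference in Il6 beyond what these intervals allow was seen, a smaller one was not detectable at this depth, and no fold change is given. In a fit with no filter on low counts, Il6 had an edgeR adjusted p of 0.948, 0.903 and 0.671 at 2, 8 and 16 weeks.

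Il1b, the gene of interleukin-1β, was low but present in every library, with 10 to 57 counts. Its level was 2.55, 0.949 and 3.46 CPM in 0-week controls. In 2-week controls it was 3.21, 2.45 and 2.54 CPM against 3.24, 2.07 and 3.32 CPM after SCI. At 8 weeks controls had 2.36, 2.18 and 2.02 CPM and SCI bladders 2.66, 2.51 and 1.66 CPM. The 2 arms overlapped at each of these weeks, with SCI libraries both above and below the whole control group. At 16 weeks controls had 3.78, 1.95 and 3.57 CPM and SCI bladders 2.69, 1.89 and 2.89 CPM, again overlapping. Its log2 fold change came to 0.07 at 2 weeks (SE 0.35, edgeR adjusted p = 0.998), 0.06 at 8 weeks (SE 0.37, adjusted p = 0.937) and -0.33 at 16 weeks (SE 0.35, adjusted p = 0.570). Leaving out 1 library moved the 16-week value. It was -0.57 when control 16 weeks replicate 2 was removed, -0.15 when replicate 1 of the same group was, and -0.17 when SCI 16 weeks replicate 2 was. Over the 3 weeks the mean difference was -0.07, and its 95% interval ran from -0.50 to 0.37, that is from 0.707 to 1.29 times the control level. The largest and smallest group means were 3.10 ± 1.00 CPM among the 16-week controls and 2.19 ± 0.170 among those of 8 weeks (SD, n = 3 each), and every SCI group mean lay between them.

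Ptgs1, the constitutive cyclooxygenase, had 893 to 1813 counts a library. In 0-week controls its level was 118.4, 112.3 and 104.4 CPM. In 2-week controls it was 103.7, 102.2 and 91.3 CPM, and after 2 weeks of SCI it was 117.9, 136.5 and 113.0 CPM, so that all 3 SCI libraries were above all 3 controls. A separation in this direction was seen for 7.21% of all tested genes at that week. At 8 weeks controls had 105.5, 122.1 and 102.0 CPM and SCI libraries 125.0, 176.9 and 107.6 CPM, with 2 of 3 SCI libraries above the highest control. At 16 weeks the arms overlapped fully, with 120.2, 161.8 and 111.9 CPM in controls and 136.4, 149.1 and 120.6 CPM after SCI. On the log2 scale the SCI arm stood at 0.30 (SE 0.16, edgeR adjusted p = 0.808), 0.31 (SE 0.16, adjusted p = 0.209) and 0.05 (SE 0.16, adjusted p = 0.882) against controls at the 3 weeks. The 8-week value rested largely on SCI 8 weeks replicate 2, without which it was 0.084 (adjusted p = 0.730), and it was 0.46 without SCI 8 weeks replicate 3 (adjusted p = 0.135). The mean over weeks was 0.22 (SE 0.09, edgeR adjusted p = 0.0884), with an interval of 1.02 to 1.33 times the control level. Scaling by library size alone brought both the 8-week value (0.49, adjusted p = 0.0255) and this mean (0.32, adjusted p = 0.00721) past the threshold, but that scaling also moved the median of all genes to 0.19 and 0.10. A fit with the replicate number as a block called the mean as well (0.22, adjusted p = 0.0161). The mean over weeks passed it too without control 16 weeks replicate 2 (0.28, adjusted p = 0.0322) or without SCI 8 weeks replicate 3 (0.27, adjusted p = 0.0401). Without SCI 8 weeks replicate 2 it was lower, at 0.14 (adjusted p = 0.174).

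Ptgs2, the inducible cyclooxygenase, had 82 to 990 counts a library. It stood at 6.97, 25.0 and 16.2 CPM in 0-week controls and at 12.6, 14.6 and 21.7 CPM in 2-week controls. The 2-week SCI libraries had 13.4, 16.4 and 36.2 CPM, and the difference from controls was 0.43 on the log2 scale (SE 0.55, edgeR adjusted p = 0.970), or -0.13 without SCI 2 weeks replicate 3. In 8-week controls the values were 117.0, 28.5 and 25.3 CPM, so that replicate 1 held about 4 times the level of the other controls and the highest of all 21 libraries. SCI libraries at 8 weeks had 12.1, 17.8 and 14.2 CPM, each below the lowest control (14.7% of all genes were separated this way). The log2 fold change at 8 weeks was -1.96 (SE 0.55, edgeR adjusted p = 0.0368), with a 95% interval of 0.116 to 0.572 times the control level. Without control 8 weeks replicate 1 it was -0.87 and was no longer called (adjusted p = 0.244). The call was also lost without SCI 8 weeks replicate 1 (-1.83, adjusted p = 0.161) or replicate 3 (-1.93, adjusted p = 0.126), and in a fit of the 8-week libraries alone (-1.96, adjusted p = 0.108). At 16 weeks controls had 26.1, 17.2 and 19.4 CPM and SCI libraries 12.3, 25.5 and 28.7 CPM, with a log2 fold change of 0.08 (SE 0.54, adjusted p = 0.941) and an interval wide enough to hold 0.482 to 2.32 times the control level. The mean over weeks was -0.48 (SE 0.31, edgeR adjusted p = 0.276), or -0.12 without control 8 weeks replicate 1.

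Whether the SCI effect on Ptgs2 changed between weeks was tested directly. The effect at 8 weeks was 2.39 lower on the log2 scale than at 2 weeks (log2 difference -2.39, SE 0.77, unadjusted p from the edgeR fit 0.00621, adjusted p = 0.450), and the effect at 16 weeks exceeded that at 8 weeks by 2.04 (SE 0.76, edgeR adjusted p = 0.639). Without control 8 weeks replicate 1 these differences were -1.31 and 0.96. Over the controls alone, Ptgs2 was 1.81 higher on the log2 scale at 8 than at 2 weeks (SE 0.54, edgeR adjusted p = 0.143) and stood at -1.44 at 16 against 8 weeks (SE 0.53, adjusted p = 0.391), values that became 0.72 and -0.35 without the same library. None of these passed the threshold. Counts of Ptgs2 per 100 counts of Ptgs1 form a ratio within a library that needs no scaling between libraries. It reuses the same Ptgs2 counts and so adds no support to the 8-week difference. Ptgs1, the denominator, stood 0.31 higher on the log2 scale after SCI at 8 weeks (not called), which lowers the ratio there. The ratio reflects gene length as well as level and is compared only between libraries. It was 110.9 in control 8 weeks replicate 1 and 23.4 and 24.8 in the other 8-week controls, against 9.68, 10.1 and 13.2 after SCI at 8 weeks. In all other groups it ranged from 5.89 to 32.1, and SCI and control libraries overlapped at 2 and 16 weeks.

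**Figure D2:**
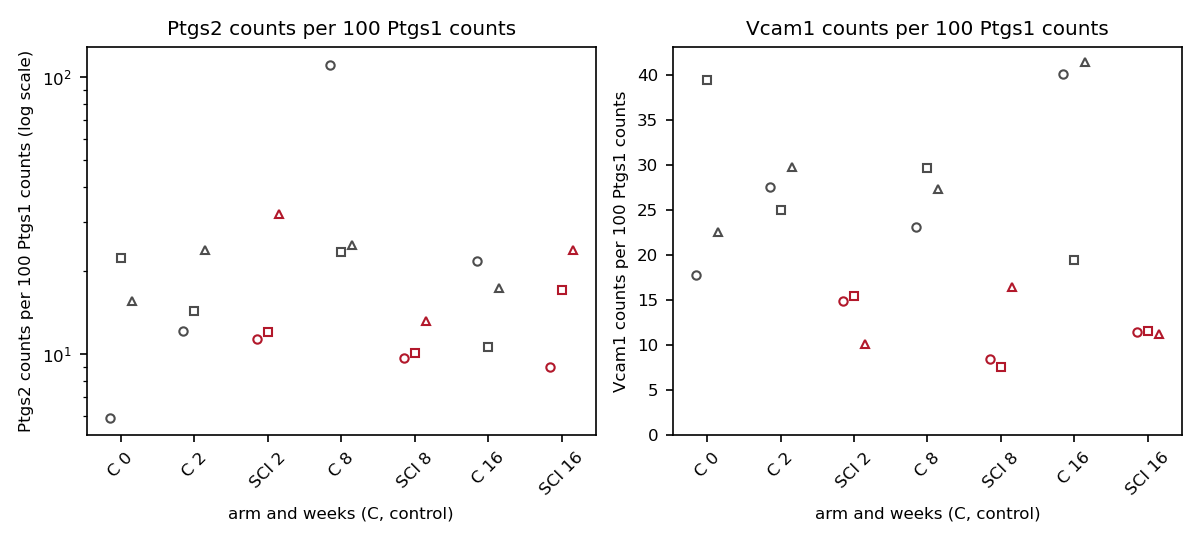
Ptgs2 counts (left, log scale) and Vcam1 counts (right) per 100 Ptgs1 counts in each library, by arm and week, with circle, square and triangle for replicates 1, 2 and 3. On the left, control 8 weeks replicate 1 stands alone at 110.9, and on the right the 9 SCI libraries, at 7.59 to 16.5, lie below all 12 controls, at 17.7 to 41.4. The right-hand ratio was chosen after the values were seen, and its denominator was itself higher after SCI at 2 weeks. In Vcam1 CPM the SCI libraries overlapped the 0-week controls, and with Icam1 as the denominator the arms overlapped.

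The sequences upstream of both adhesion genes are shown because these genes are textbook NF-κB targets and were the members whose SCI libraries all lay below the controls at 16 weeks, a separation seen for 18.3% of all genes (Icam1 was not called there). They are the 250 bases before the RefSeq transcription start in rat build GRCr8, which is a later build than the Rnor_6.0 named in the submitters' processing notes. All 6 members matched the promoter table by symbol. Capitals mark matches to the κB consensus, to a RelA variant of it, or to the TATA box (TATAAA), searched on both strands.
Icam1, chr8:27829595-27829844, plus strand: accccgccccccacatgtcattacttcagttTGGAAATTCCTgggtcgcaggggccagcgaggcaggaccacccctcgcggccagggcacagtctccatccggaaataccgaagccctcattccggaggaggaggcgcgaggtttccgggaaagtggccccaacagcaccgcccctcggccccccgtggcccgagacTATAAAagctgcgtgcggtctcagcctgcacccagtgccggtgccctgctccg
Vcam1, chr2:206742784-206743033, minus strand: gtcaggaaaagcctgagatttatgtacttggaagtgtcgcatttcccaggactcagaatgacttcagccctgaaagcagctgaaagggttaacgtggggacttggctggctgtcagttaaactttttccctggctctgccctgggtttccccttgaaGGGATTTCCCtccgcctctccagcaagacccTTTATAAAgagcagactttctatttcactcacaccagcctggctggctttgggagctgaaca

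In Icam1 the RelA variant matched at TGGAAATTCC, 219 to 210 bases before the start, and on the other strand at an overlapping position 1 base nearer. In Vcam1 the κB consensus matched at GGGATTTCCC, 93 to 84 bases before the start, on both strands. Both promoters held a TATA box, 53 to 48 bases before the start in Icam1 and 60 to 55 in Vcam1, where an overlapping match lay on the other strand. Of 33469 promoter windows of the same length, 6.33% held the κB consensus, 6.33% the RelA variant and 12.9% the TATA box. Among the other members, the κB consensus also matched in Il6, at 68 to 59 bases before the start, and the TATA box in Il1b. These are matches of letters and not measured binding sites.

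Icam1, whose protein binds the leukocyte β2 integrins, had 129 to 532 counts a library. Its level was 16.3, 18.4 and 21.1 CPM in 0-week controls. At 2 weeks controls had 16.9, 13.6 and 21.5 CPM and SCI libraries 15.3, 15.9 and 16.9 CPM, inside the control range. At 8 weeks controls had 32.0, 24.0 and 27.6 CPM. SCI libraries then had 16.8, 41.2 and 13.4 CPM, so that 2 lay below the lowest control and replicate 2 was the highest of all 21 libraries. At 16 weeks controls had 35.3, 20.4 and 23.2 CPM and SCI libraries 15.1, 13.9 and 18.3 CPM, with each SCI library below each control (18.3% of all genes were separated this way). Against controls, Icam1 differed on the log2 scale by -0.11 at 2 weeks (SE 0.31, edgeR adjusted p = 0.994), -0.24 at 8 weeks (SE 0.30, adjusted p = 0.656) and -0.75 at 16 weeks (SE 0.31, adjusted p = 0.135). The mean over weeks was -0.36 (SE 0.18, edgeR adjusted p = 0.145), with an interval of 0.599 to 1.01 times the control level.

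The result for Icam1 turned on SCI 8 weeks replicate 2. Without this library, the log2 fold change at 8 weeks was -0.88 (edgeR adjusted p = 0.0174), at 16 weeks -0.75 (adjusted p = 0.0339), and for the mean over weeks -0.58 (adjusted p = 0.00274). All 3 then passed the threshold, although the 16-week fold change itself stayed at -0.75, since no library of that week had been removed. That fit called more genes of all kinds, 16.7% against 8.41% at 8 weeks, 8.34% against 5.62% at 16 weeks and 28.2% against 22.7% for the mean. The same library held the highest Ptgs1 level of the 21, at 176.9 CPM, while its Vcam1 level, at 13.4 CPM, was within the range of the other SCI libraries. In the opposite sense, the 16-week difference was -0.47 without control 16 weeks replicate 1 (adjusted p = 0.439), and the 8-week difference was 0.052 without SCI 8 weeks replicate 3. Among controls, Icam1 was 0.69 higher on the log2 scale at 8 than at 2 weeks (SE 0.31, edgeR adjusted p = 0.240), with all 3 libraries of 8 weeks above those of 2 weeks, as was the case for 14.2% of all genes.

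Vcam1, whose protein binds the α4 integrins of lymphocytes and monocytes, had 103 to 727 counts a library. In 2-week controls its level was 28.5, 25.5 and 27.2 CPM, and in SCI bladders of that week 17.5, 21.0 and 11.4 CPM. In 8-week controls it was 24.3, 36.2 and 27.9 CPM, and after SCI 10.6, 13.4 and 17.7 CPM. In 16-week controls it was 48.2, 31.5 and 46.3 CPM, and after SCI 15.7, 17.3 and 13.5 CPM. The arms overlapped at none of these weeks. Taken by week, 8.43%, 14.7% and 18.3% of the genes tested were separated in this lower direction. Across weeks, too, the highest SCI library (21.0 CPM) was under the lowest of the 9 controls (24.3 CPM), which held for 0.565% of tested genes. The 0-week controls, at 21.0, 44.3 and 23.5 CPM, overlapped the SCI range at replicate 1, which was just under the highest SCI library.

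The log2 fold change of Vcam1 was -0.70 at 2 weeks (SE 0.27, edgeR adjusted p = 0.581), -1.09 at 8 weeks (SE 0.28, adjusted p = 0.0272) and -1.44 at 16 weeks (SE 0.27, adjusted p = 0.0207). The corresponding 95% intervals were 0.415 to 0.916, 0.315 to 0.703 and 0.248 to 0.549 times the control level. Averaged over the weeks the difference was -1.07 (SE 0.16, edgeR adjusted p = 0.000532), or 0.475 times the control level with an interval of 0.377 to 0.598. An exact permutation of SCI and control labels within weeks, two-sided over 8000 arrangements, gave p = 0.00025, the smallest it can give, and 0.00793 after adjustment over all tested genes. Separation of the arms at all 3 weeks by itself gives this smallest p, so the test restates that separation and adds no support to it. The same exact test gave p = 0.0468 for Ptgs1 (adjusted 0.123), 0.0690 for Icam1 (adjusted 0.162), 0.312 for Ptgs2 (adjusted 0.465) and 0.678 for Il1b (adjusted 0.786).

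The calls at single weeks were less firm than the mean over weeks, and in the fits without 1 library that lost a call of Vcam1, fewer genes were called in all (0.103% to 2.8%, against 8.41% at 8 weeks and 5.62% at 16 weeks). The 8-week call of Vcam1 was lost without control 8 weeks replicate 2 (-0.91, adjusted p = 0.0922), without SCI 8 weeks replicate 1 (-0.91, adjusted p = 0.143) and without SCI 8 weeks replicate 3 (-1.30, adjusted p = 0.0643). It was also lost in a fit of the 8-week libraries alone (-1.09, adjusted p = 0.0528). The 16-week call was lost without control 16 weeks replicate 1 (-1.32, adjusted p = 0.0985), SCI 16 weeks replicate 1 (-1.45, adjusted p = 0.0773) or SCI 16 weeks replicate 3 (-1.35, adjusted p = 0.0755). The mean over weeks stayed past the threshold in all 21 fits that left out 1 library, from -1.14 to -1.01 (adjusted p from 7.37e-05 to 0.00156). The ratio of Vcam1 to Ptgs1 counts within a library, chosen after the values were seen, separated the arms as well. It was 7.59 to 16.5 Vcam1 counts per 100 Ptgs1 counts in the 9 SCI libraries and 17.7 to 41.4 in the 12 controls. Ptgs1, the denominator, was itself higher in each SCI library than in each control at 2 weeks, and in 2 of 3 SCI libraries at 8 weeks. With Icam1 as the denominator the arms overlapped, at 32.6 to 132.7 Vcam1 counts per 100 Icam1 counts in SCI libraries and 76.0 to 240.7 in controls.

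**Figure D3:**
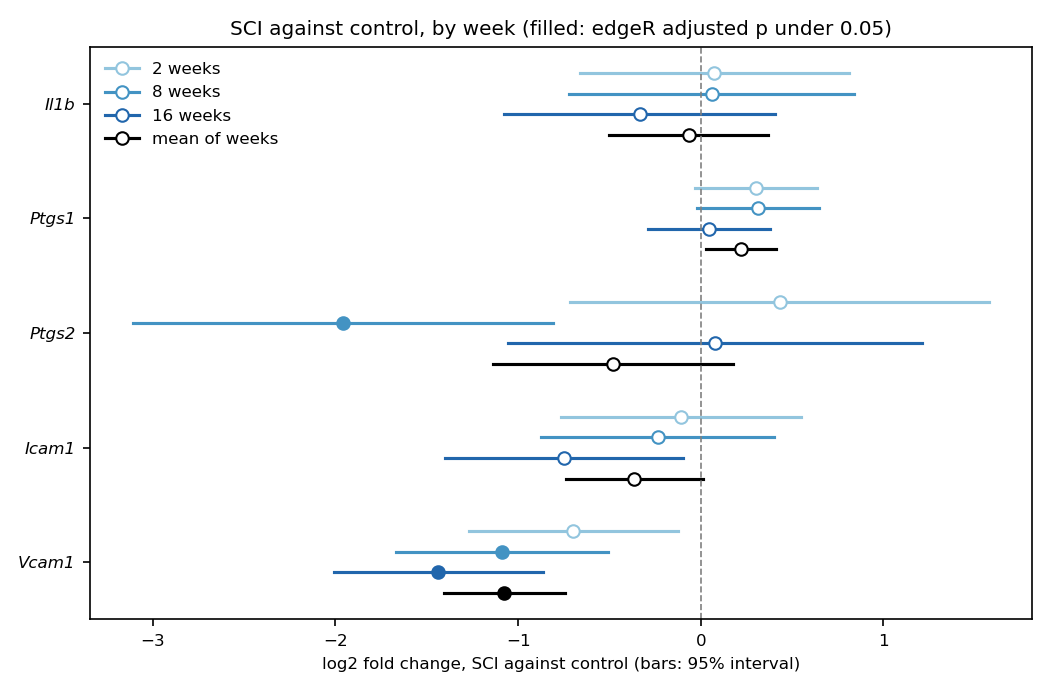
Log2 fold change of SCI against control for the 5 tested genes at 2, 8 and 16 weeks and for the mean of the weeks, with 95% intervals from the edgeR fit, where a filled point has an adjusted p under 0.05. Vcam1 lies at -0.70, -1.09 and -1.44 at the 3 weeks, Ptgs2 is called at 8 weeks alone (-1.96), and Il1b runs from -0.33 to 0.07.

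**Figure D4:**
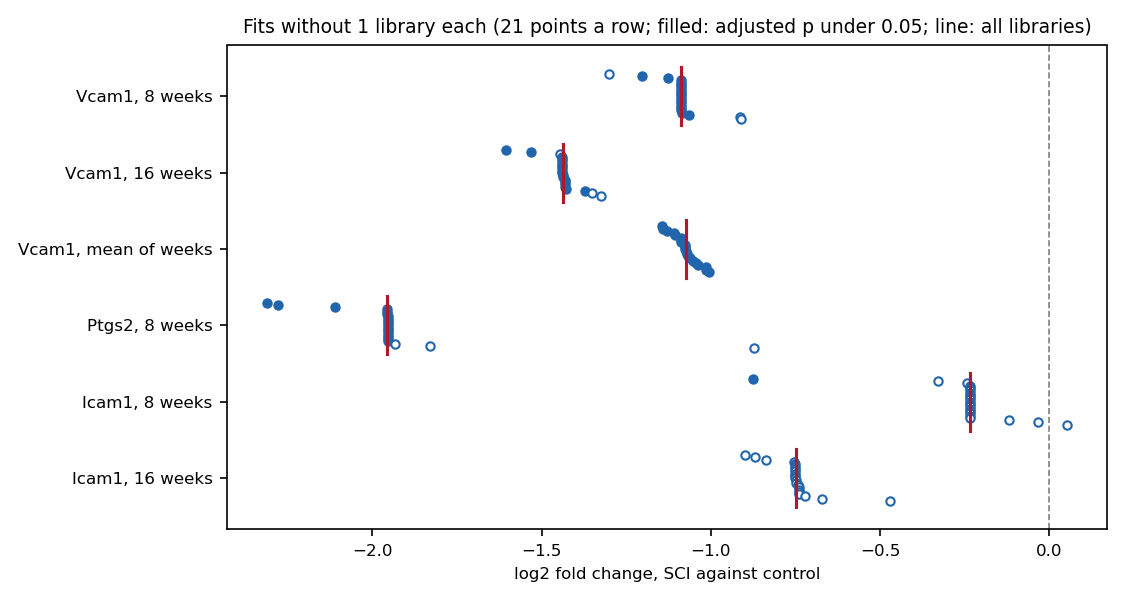
Log2 fold change of SCI against control in 21 fits that each left out 1 library, for the results named on the vertical axis, with a red line for the fit of all libraries and filled points where the adjusted p was under 0.05. For Ptgs2 at 8 weeks 1 point stands apart at -0.87 (without control 8 weeks replicate 1), and for Icam1 at 8 weeks the only filled point, at -0.88, is the fit without SCI 8 weeks replicate 2.

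No change over time within an arm passed the threshold, although Ptgs2 and Icam1 in controls moved by 2 or more standard errors before adjustment, as given above. With edgeR, 0 of 5 members differed between 2 and 0 weeks, 8 and 2 weeks or 16 and 8 weeks among controls, where 0%, 0% and 0.0788% of all genes were called. The members with an unadjusted p under 0.05 numbered 0, 2 (Ptgs2 and Icam1) and 1 (Ptgs2), where 13.4%, 18.9% and 9.5% of all genes had one. Among SCI libraries, 0 of 5 differed between 8 and 2 weeks (0.0131% of all genes) or between 16 and 8 weeks (0%), and 0 had an unadjusted p under 0.05, against 4.49% and 1.81% of all genes. DESeq2 called 0 members in these 5 comparisons as well, against 0.00657% to 1.64% of all genes. By group mean, Vcam1 ran from 13.9 ± 3.59 CPM (SD, n = 3) after SCI at 8 weeks, through 15.5 ± 1.91 at 16 weeks and 16.7 ± 4.87 at 2 weeks, to controls at 27.1 ± 1.51 (2 weeks), 29.5 ± 6.10 (8 weeks), 29.6 ± 12.8 (0 weeks) and 42.0 ± 9.12 (16 weeks). The 3 SCI groups overlapped each other, and so did the 0-, 2- and 8-week controls. The step from 8 to 16 weeks in controls was 0.51 on the log2 scale (SE 0.26, edgeR adjusted p = 0.559), and over the same weeks the SCI libraries differed by 0.16 (SE 0.28, adjusted p = 1.00).

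The Vcam1 difference was larger at each later week, but no test of this trend passed the threshold. From 8 to 16 weeks the control mean went from 29.5 to 42.0 CPM. The SCI mean went from 13.9 to 15.5 CPM, and neither step was called. Taken between weeks, the SCI effect changed by -0.39 from 2 to 8 weeks (SE 0.39, edgeR adjusted p = 0.779), by -0.74 from 2 to 16 weeks (SE 0.38, adjusted p = 0.655) and by -0.35 from 8 to 16 weeks (SE 0.39, adjusted p = 0.921). With edgeR, 0 of 5 members were called in each of these 3 interactions, where 0.0197%, 0% and 0% of all genes were called. The members with an unadjusted p under 0.05 numbered 1, 0 and 1, which was Ptgs2 both times (8.59%, 7.75% and 6.63% of all genes), and DESeq2 called 0 (0.177%, 0.0394% and 0.105% of all genes). The interactions share libraries with each other and with the comparisons within weeks.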

How the data were processed

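Bladder RNA was sequenced in 21 rats. Ribosomal RNA was removed, stranded libraries were read as 51 bp paired ends, and the authors combined the counts of both flow cells. The authors deposited raw counts per Ensembl gene, whole numbers without normalization. The submitters' processing notes name Trim Galore 0.6.10, STAR 2.7.10a, SAMtools 1.17, featureCounts 2.0.3 and the build Rnor_6.0. The annotation release and the strand setting of the counting are not given in the sources used here, so how reads over overlapping genes were assigned is not known. The labels put all libraries in 1 batch.

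Groups were taken from the sample titles. Genes were filtered with filterByExpr of edgeR (version 4.0.16, R 4.3.3), TMM-scaled (trimmed mean of M values, factors 0.903 to 1.09) and fitted in 1 quasi-likelihood model with 7 group means. The study also used edgeR, but its gene numbers are not those of this fit. It reported differentially expressed genes at 2 weeks, where this fit called 0, and more at 8 and 16 weeks than were called here. P-values were Benjamini-Hochberg adjusted within each comparison over 15225 genes. Intervals are 95%, from the coefficient, its F statistic and the t distribution. CPM values are TMM-scaled, and log2 CPM used a prior count of 2. Replicates were checked as separate libraries (their counts differed with a chi-square of 7.22 to 59.9 per degree of freedom). On simulated data with 200 changed genes among 15092, the 8-week test recovered 90 of 100 changed 4-fold and 67 of 100 changed 2-fold, with 10 unchanged genes called, and a 2-week comparison with no change gave 0 calls.

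The members, gene lists and alternatives were chosen with earlier results of these data known. All 6 members are named whatever their result. Lists of cytokine, prostanoid, adhesion and NF-κB pathway genes and of cell-type markers were planned but need symbols, and 0 of 32754 identifiers matched the RefSeq table. The 3 genes most like each tested member (Pearson r of log2 CPM over 21 libraries) were found by identifier but were to be named only with a symbol, so no other gene is named. The exact permutation test, and fits without libraries of groups not compared, were added after the data were seen. Promoter sequences are from RefSeq, build GRCr8. Exact tests of 3 against 3 animals cannot give a two-sided p below 0.1.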

Additional observations from a re-analysis of the deposited data

How the results depend on the processing

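The counts of called members at 2 weeks, in the interactions and over time were 0 under every alternative that used adjusted p-values, DESeq2 (version 1.42.0) included. When calls needed an unadjusted p below 0.05 and a change of 0.5 or more (log2, either direction) instead, they were 1 at 2 weeks (4.07% of all genes), 2 at 16 weeks (15%), 1 for the interaction of 8 with 2 weeks (6.37%), 1 for that of 16 with 8 weeks (4.72%), 2 for controls at 8 against 2 weeks (9.78%) and 1 for controls at 16 against 8 weeks (4.91%). At 8 weeks, a fit restricted to the libraries of that week called 0 members in place of 2, with the folds as before (Vcam1 -1.09, adjusted p = 0.0528, and Ptgs2 -1.96, adjusted p = 0.108). That fit called 2.24% of its 14352 genes, against 8.41%. The like fit of the 16-week libraries called 14.6% of 14423 genes, against 5.62%, and kept Vcam1 (-1.43, adjusted p = 0.00843). Leaving out the 0-week controls called the same number of members, while the share of all genes called rose to 16.3% at 8 weeks and 13.8% at 16 weeks. For the mean over weeks, library size only gave 2 in place of 1 (32.3% of all genes) and the replicate block gave 2 (24.9%), both by adding Ptgs1, and the exact permutation test gave 1 (24.5%). Library size only also called Ptgs1 at 8 weeks, for 3 members in all (20.3% of all genes), and moved the median log2 fold change of all genes to 0.19 there and to 0.10 for the mean, against 0.0032 and -0.0046 with TMM. Leaving out 1 library gave 0 to 3 members at 8 weeks, where 0.207% to 16.7% of all genes were called, 0 to 2 at 16 weeks (0.103% to 11.2%), 1 to 2 for the mean (15.8% to 28.2%) and 0 to 0 in the other comparisons (at most 0.834%). Members and background fell together: the fits with 0 members called 0.207% and 0.394% of all genes at 8 weeks (without SCI 8 weeks replicate 1 or 3) and 0.103%, 0.11% and 0.123% at 16 weeks (without SCI 16 weeks replicate 1 or 3, or control 16 weeks replicate 1). The second member at 16 weeks, and for the mean without SCI 8 weeks replicate 2, was Icam1. Samples that share a replicate number were not paired, with correlations of their deviations from -0.14 to 0.13 over 9 pairs of SCI and control, of which 3 were over 0.1. The replicate block changed no other call.

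Vcam1 kept its call for the mean over weeks in all 29 alternatives (-1.14 to -0.97, adjusted p from 1.2e-08 to 0.00156), and its values at single weeks kept their sign in all. Some members that were not called changed sign. For Il1b the mean over weeks was 0.039 with library size only. When 1 library was left out, the 2-week value of Il1b lay between -0.039 and 0.27 and its 8-week value between -0.070 and 0.25. The 16-week value of Ptgs1 lay between -0.062 and 0.22. Ptgs2 spanned -0.13 to 0.69 (2 weeks) and -0.15 to 0.36 (16 weeks), and Icam1 spanned -0.26 to 0.072 (2 weeks) and -0.88 to 0.052 (8 weeks). The cause was not tested. With 3 animals a group the interval for Ptgs2 held 0.609 to 2.99 times the control level at 2 weeks and 0.482 to 2.32 at 16 weeks, and for Il6 the depth set the limit.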

Other observations

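The 2 libraries with the most Il6 counts, 3 each, were also the extremes for another member. Control 8 weeks replicate 1 had the highest Ptgs2 level of the 21 libraries, at 117.0 CPM, and SCI 8 weeks replicate 2 the highest Icam1 level, at 41.2 CPM. Neither held the highest Il1b level, which was 3.78 CPM in control 16 weeks replicate 1, the library that also had the highest Vcam1 level, at 48.2 CPM. This was noticed after the values had been seen, and counts of 3 carry large counting error.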
